A study of Mus musculus with 6 samples.

Results

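The genes described here are 10 of the Toll-like receptor system: the receptors Tlr1, Tlr2, Tlr3, Tlr4, Tlr6 and Tlr9, the co-receptor Cd14, the adaptors Myd88 and Ticam1, and the receptor chaperone Unc93b1. They were taken by gene symbol from a count table of 53800 genes, and all 10 were found. Every one of them passed the filter on low counts, which left 14509 genes to be tested. RNA sequencing measured polyadenylated transcripts in NCTC 1469, an established line derived from mouse liver that the labels call hepatocytes, with a wild-type genotype and no strain given. One group of 3 libraries came from cells kept 6 days on a random positioning machine, a device that rotates a culture about changing axes to imitate weightlessness, here called simulated microgravity. The other group of 3 libraries came from cells kept 6 days at normal gravity. Both groups grew in the same medium with serum, and no sample carries a label for melatonin, which the series title names. The libraries therefore bear on simulated microgravity against normal gravity alone.

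Toll-like receptors bind molecules of microbes and, in some settings, of damaged cells. Tlr2 pairs with Tlr1 or Tlr6 at the cell surface to bind bacterial lipoproteins, and Tlr4 binds lipopolysaccharide handed over by Cd14 with its partner Ly96. Tlr3 and Tlr9 bind double-stranded RNA and DNA in endosomes, where Unc93b1 brings them. Most of the receptors signal through Myd88, Tlr3 signals through Ticam1, and Tlr4 uses both. In liver these genes are best known from the resident macrophages, the Kupffer cells, which meet bacterial products arriving from the gut.

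The libraries held 30474792 to 34318208 counts in simulated microgravity and 31406875 to 32797684 at normal gravity. The count columns are named with the letters R and C, which were read as random positioning machine and control, and every direction below rests on that reading. Normal gravity replicate 1 stood apart: the correlation of its log2 CPM (counts scaled by library size) with the other normal gravity libraries was 0.936 for both, below the 0.943 to 0.946 it had with the simulated microgravity libraries, while the other two normal gravity libraries correlated at 0.985 with each other. No label marks it off, so fold changes are given with and without it. Whether replicates were separate cultures is not stated in the labels, so the p-values reflect only how far these libraries spread, a spread that may be technical. The label hepatocytes went against the markers: 9 of 12 hepatocyte genes had no count in any library and only Trf reached 1 CPM, whereas all 12 macrophage genes reached it. The hepatocyte genes summed to 25.6 to 32.9 CPM in simulated microgravity and 43.5 to 54.0 CPM at normal gravity. Only 1 was tested, with a log2 fold change of -0.75 that edgeR did not call over all libraries. It was called lower without normal gravity replicate 1 (-0.64) and in DESeq2 (-0.76). The summed macrophage markers, Cd14 among them, came to 10680 to 11966 CPM in simulated microgravity and 7103 to 11150 CPM at normal gravity, where replicate 1 was the highest. Of their 13 entries edgeR called 0 with all libraries, where 8 had a log2 fold change above 0. Without normal gravity replicate 1 it called 7 higher and 0 lower, and all 13 were above 0. In that comparison 15.7% of all tested genes were called higher and 15.1% lower. Of 6 Kupffer cell markers 2 reached 1 CPM (Marco and Id3), and the 6 summed to 759 to 829 CPM in simulated microgravity and 160 to 374 CPM at normal gravity. Marco, the highest of them with a mean of 387 CPM over all libraries, carried this difference. It was higher in simulated microgravity by 2.61 on the log2 scale (adjusted p = 0.105 in edgeR), while the other tested marker had 0.079. Without normal gravity replicate 1 both of these 2 were called higher, by 3.67 and 0.31. Clec4f and Timd4, which define resident Kupffer cells, had group means of 0.0331 CPM or less. The 6 endothelial markers, of which 3 reached 1 CPM, summed to 50.1 to 61.8 CPM in simulated microgravity and 22.1 to 24.7 CPM at normal gravity. They did not move together: the 5 tested had log2 fold changes from -1.04 to 2.28. Of those, 3 were above 0, and 1 had an adjusted p under 0.05 in edgeR. The part of these marker differences in the results below was not tested, and in bulk RNA fewer cells of a type cannot be told apart from less RNA per cell.

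The receptor genes among the 10 lie apart on the mouse genome except for 1 pair: Tlr1 (chr5:64924679-64933563) and Tlr6 (chr5:64952031-64960097) are neighbours on the minus strand of GRCm38. Tlr2 lies at chr3:83836272-83841767 (minus), Tlr3 at chr8:45395665-45411080 (minus), Tlr4 at chr4:66827584-66930284 (plus) and Tlr9 at chr9:106222598-106226883 (plus). Myd88 lies at chr9:119335934-119341411 (minus), Ticam1 at chr17:56269319-56276786 (minus) and Unc93b1 at chr19:3935186-3949340 (plus). Promoter sequences from RefSeq (GRCm38.p6, 250 bases before to 50 after the start) were found for 7 of the 10 genes, and not for Tlr4, Cd14 or Unc93b1. Those of 4 receptors are shown because these are the receptors that passed the test once normal gravity replicate 1 was left out, Tlr1 and Tlr9 lower and Tlr2 and Tlr6 higher, and each window holds the gene start of the count table. Capitals mark matches, on either strand, to the letters of 5 motifs. GAGGAA is the core bound by PU.1, an ETS factor of macrophages. For NF-kB the search was for GGGA followed, after any 4 bases, by CC, and for AP-1 it was for TGANTCA. The box bound by Sp1 was searched as GGGCGG, and the TATA box, bound by the general transcription machinery, was searched as TATAAA. The windows are chr5:64933509-64933808 (minus) for Tlr1, chr9:106222348-106222647 (plus) for Tlr9, chr3:83841559-83841858 (minus) for Tlr2 and chr5:64959999-64960298 (minus) for Tlr6.
Tlr1: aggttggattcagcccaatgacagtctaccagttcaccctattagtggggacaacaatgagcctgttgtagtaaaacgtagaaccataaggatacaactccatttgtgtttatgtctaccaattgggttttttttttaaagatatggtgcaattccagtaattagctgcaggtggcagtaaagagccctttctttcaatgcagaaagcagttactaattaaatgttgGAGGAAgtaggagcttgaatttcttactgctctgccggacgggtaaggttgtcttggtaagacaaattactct
Tlr9: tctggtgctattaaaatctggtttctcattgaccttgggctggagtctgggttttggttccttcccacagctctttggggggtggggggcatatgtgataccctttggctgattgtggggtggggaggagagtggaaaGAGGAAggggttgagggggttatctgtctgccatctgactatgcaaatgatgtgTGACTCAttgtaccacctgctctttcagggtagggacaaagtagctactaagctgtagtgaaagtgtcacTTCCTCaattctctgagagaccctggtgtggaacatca
Tlr2: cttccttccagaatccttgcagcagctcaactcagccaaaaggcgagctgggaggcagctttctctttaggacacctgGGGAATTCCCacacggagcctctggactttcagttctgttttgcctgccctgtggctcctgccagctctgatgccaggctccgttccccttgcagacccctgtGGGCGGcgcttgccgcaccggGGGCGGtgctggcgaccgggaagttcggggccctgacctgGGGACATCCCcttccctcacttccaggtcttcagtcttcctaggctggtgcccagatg
Tlr6: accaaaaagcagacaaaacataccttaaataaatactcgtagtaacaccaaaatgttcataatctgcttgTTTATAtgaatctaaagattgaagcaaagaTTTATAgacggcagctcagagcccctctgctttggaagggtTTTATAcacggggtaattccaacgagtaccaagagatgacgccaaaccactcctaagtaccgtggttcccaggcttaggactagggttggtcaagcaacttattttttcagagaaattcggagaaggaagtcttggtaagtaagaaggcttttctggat
The Tlr1 window held GAGGAA at -23 from the start and no other searched motif. In the Tlr9 window GAGGAA matched at -112 and, on the other strand, at 13, and the AP-1 motif matched at -58. Tlr2 had the NF-kB motif at -172 and -8, both matching on either strand, and GGGCGG at -69 and -48. All positions count from the RefSeq start. The count table starts Tlr2 further upstream, and by that start only the match at -172 lies before the gene. The Tlr6 window had 3 matches to TATAAA, all on the other strand, and none to the rest. No 2 of these matches overlapped. Among 32851 promoters of the same length, 28.3% held GAGGAA, 20.7% the NF-kB motif, 7.81% the AP-1 motif, 35.7% GGGCGG and 13.6% TATAAA. Tlr1 and Tlr6 each had another RefSeq window, not shown, which missed the gene start of the count table and held no match. The matches describe letters in the windows only.

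Transcript levels of the 10 genes spanned a wide range. Per gene length (the counts of a gene over its length, scaled to the same sum in every library), the mean over all 6 libraries was 1134 for Cd14, 453.8 for Tlr2, 135.5 for Unc93b1, 60.0 for Myd88 and 54.1 for Tlr4. Lower down came Ticam1 with 16.8, Tlr6 with 16.3, Tlr9 with 5.60, Tlr3 with 4.92 and Tlr1 with 3.84. Cd14, Tlr2, Unc93b1 and Myd88 kept this order in every library, since their ranges over the 6 libraries did not overlap. From Myd88 down, the range of each gene over the 6 libraries overlapped that of the next. Within single libraries Tlr6 was above Tlr9 in all 6, while each other neighbour pair from Myd88 down kept its order in 3 to 5 of the 6 libraries.

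**Figure D1:**
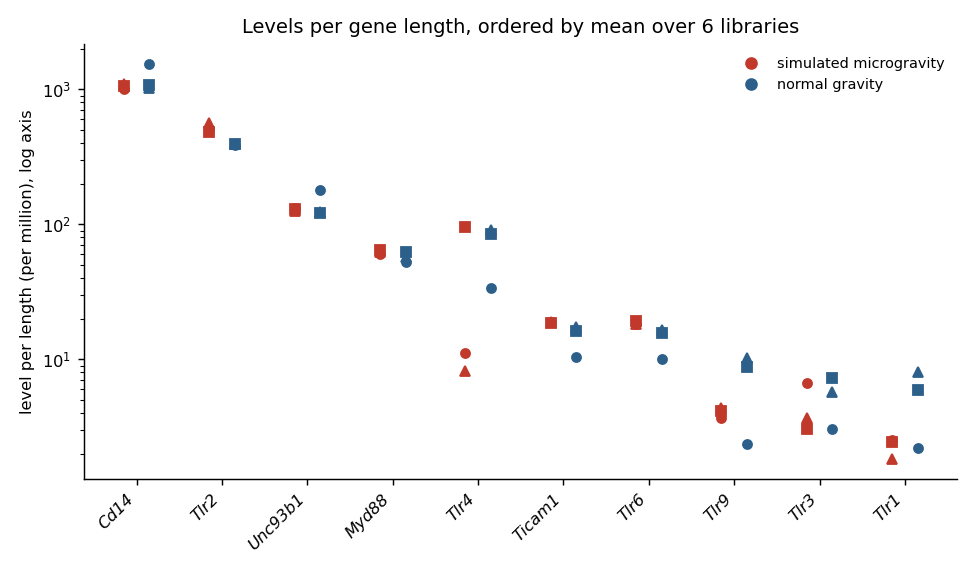
Level per gene length of each gene in each library on a log axis (counts over gene length, scaled to the same sum in every library), ordered by the mean over 6 libraries. Circles, squares and triangles are replicates 1, 2 and 3. Cd14 and Tlr2 stand above the rest in both groups, and Tlr4 spans 8.18 to 95.8 within simulated microgravity.

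Over all 6 libraries none of the 10 genes passed the threshold of 0.05 on the adjusted p of edgeR's quasi-likelihood test (Benjamini-Hochberg over all 14509 genes), in which 1.52% of all tested genes were called. Unadjusted p was under 0.05 for 4 of them (Tlr1, Tlr2, Tlr6 and Ticam1), beside 2325 of all 14509 tested genes. DESeq2 and limma-voom also called 0, where they called 5.86% and 1.62% of all genes with an adjusted p. Without normal gravity replicate 1 the same test called 4 of the 10 higher in simulated microgravity (Tlr2, Tlr6, Ticam1 and Unc93b1) and 2 lower (Tlr1 and Tlr9). Across all genes that comparison called 15.7% higher and 15.1% lower, 30.8% in all. With all libraries kept but weighted by quality, limma-voom called the same genes except Unc93b1, 5 of 10 beside 33.1% of all genes. The median log2 fold change of the 10 genes was -0.20 with all libraries and 0.16 without that one, beside -0.02 and 0.01 over all tested genes. In 4 of the 10 the groups did not overlap in TMM-scaled CPM, 3 higher and 1 lower in simulated microgravity. Of all tested genes 14.4% were higher and 12.9% lower in this way (27.3% in all).

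**Figure D2:**
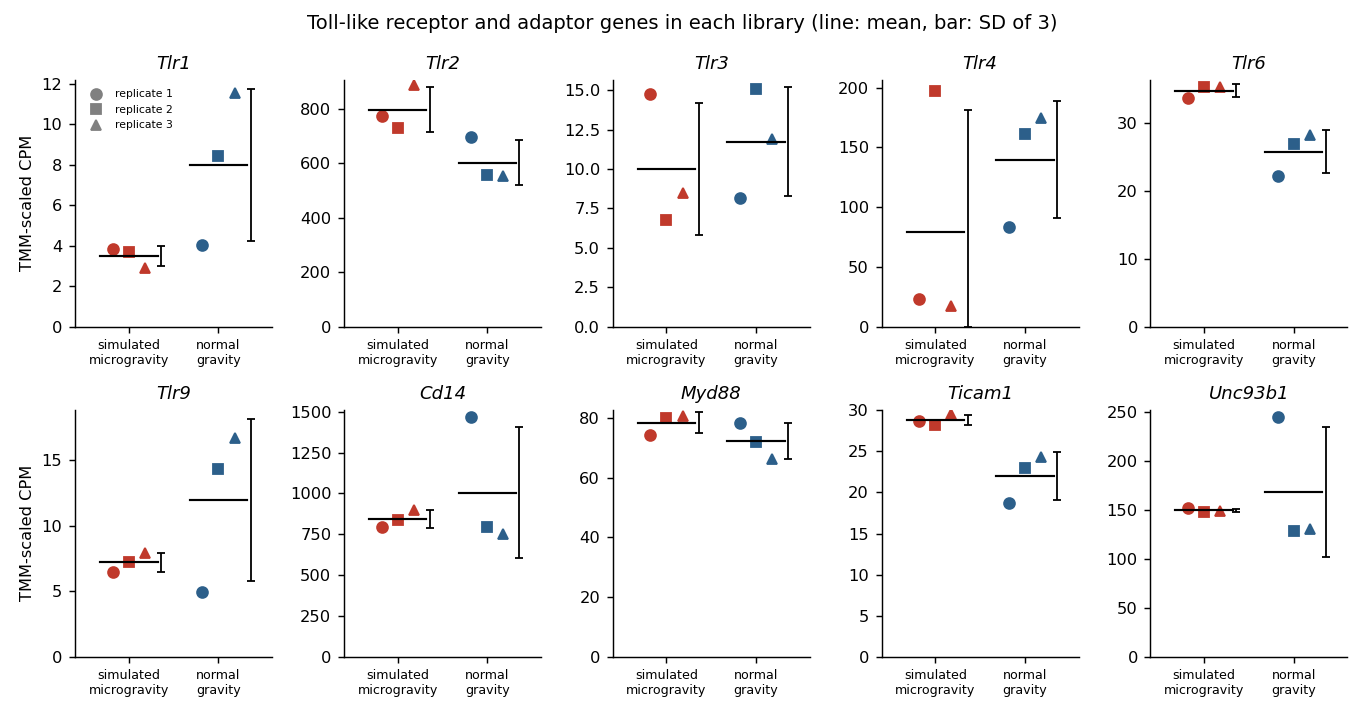
TMM-scaled CPM of each gene in each library, with the group mean (line) and SD of 3 libraries (bar, cut at 0 for Tlr4). Simulated microgravity is drawn left of normal gravity. Replicate 1 at normal gravity (circle) lies nearest the simulated microgravity libraries for Tlr1, and far above all others for Cd14 and Unc93b1.

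Among the surface receptors for lipoproteins, Tlr2 and Tlr6 had more TMM-scaled CPM in every simulated microgravity library than in any normal gravity library. For Tlr1 each simulated microgravity library was below on that scale. Tlr2, the shared partner, had 773, 729 and 889 CPM (TMM-scaled, replicates 1 to 3) in simulated microgravity, against 698, 555 and 555 CPM at normal gravity. Every simulated microgravity library was above every normal gravity library, and replicate 1 at normal gravity came closest. On the log2 scale the difference (simulated microgravity over normal gravity throughout) came to 0.40 (SE 0.14, adjusted p = 0.235 in edgeR) with all libraries and 0.52 (SE 0.08, adjusted p = 0.00638) without normal gravity replicate 1. Tlr1, the partner for triacylated lipoproteins, had 3.83, 3.70 and 2.90 CPM in simulated microgravity, against 4.02, 8.40 and 11.5 CPM at normal gravity. The groups did not overlap on this scale, but normal gravity replicate 1 lay just above the highest simulated microgravity library, replicate 1. Their raw counts were 128 and 130. By level per gene length normal gravity replicate 1 had 2.20, below replicates 1 and 2 in simulated microgravity (2.51 and 2.43), so there the groups overlapped. For Tlr1 the log2 difference was -1.20 (SE 0.39, adjusted p = 0.206 in edgeR) over all libraries and -1.51 (SE 0.20, adjusted p = 0.00326) without that library. Tlr6, the partner for diacylated lipoproteins, had 33.6, 35.3 and 35.2 CPM in simulated microgravity, against 22.2, 26.9 and 28.3 CPM at normal gravity. For Tlr6 the groups did not overlap on either scale, and the simulated microgravity libraries lay close together. Tlr6 differed by 0.43 log2 units (SE 0.13, adjusted p = 0.176 in edgeR) and 0.34 (SE 0.07, adjusted p = 0.0136) without normal gravity replicate 1.

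Counts of Tlr1 and Tlr6 carry one limit of their own. In GENCODE M21 their transcripts share identical stretches of up to 229 bases, and 13.6% of the 50-base windows of Tlr1 transcripts also occur in Tlr6 transcripts. The sources used here do not say how the authors counted reads that match both genes. The ratio of Tlr1 to Tlr6 counts, a comparison chosen after the values were seen, was 0.114, 0.105 and 0.0822 in simulated microgravity, against 0.181, 0.313 and 0.407 at normal gravity. The ratio was lower in all 3 simulated microgravity libraries than in any normal gravity library, by 1.52 on the log2 scale. An exact two-sided permutation test gave p = 0.1, the smallest that 3 against 3 libraries allow, or 0.3 adjusted over 3 such ratios. That outcome was fixed beforehand. By CPM, Tlr1 was already lower and Tlr6 higher in every simulated microgravity library than in any normal gravity library, so the test adds nothing. The ratio of Tlr9 to Unc93b1 (p = 0.7) and that of Cd14 to Tlr4 (p = 0.4) in the same exact test gave adjusted p-values of 0.7 and 0.6.

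**Figure D3:**
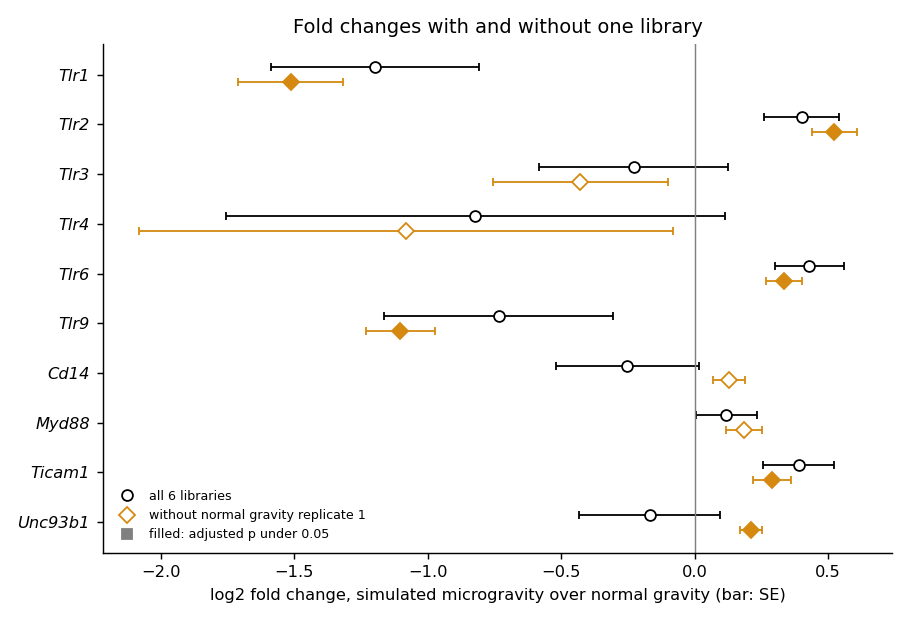
Log2 fold change of each gene, simulated microgravity over normal gravity, with its SE, from all 6 libraries (black circles) and without normal gravity replicate 1 (orange diamonds). Filled symbols have an adjusted p under 0.05 in edgeR. No circle is filled, 6 diamonds are, and Cd14 and Unc93b1 lie on opposite sides of 0 in the comparisons with and without that library.

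Tlr4, the lipopolysaccharide receptor, varied most of all 10 genes. It had 22.9, 197 and 17.4 CPM in simulated microgravity, against 83.6, 161 and 174 CPM at normal gravity. Replicate 2 in simulated microgravity was the highest of all 6 libraries and replicates 1 and 3 were the lowest, so the groups overlapped widely. The estimated log2 difference was -0.82 (SE 0.94, adjusted p = 0.741 in edgeR), and -1.08 (SE 1.00, adjusted p = 0.462) without normal gravity replicate 1. DESeq2 gave Tlr4 no adjusted p.

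The spread of Tlr4 was set beside that of other genes after it had been seen. Among 10500 genes with a mean of at least 5 CPM, the highest and lowest simulated microgravity library differed by a median of 0.15 log2 units, with a 95th percentile of 0.66. For Tlr4 they differed by 3.49, and 23 genes including it (0.219%) had a difference as large. Its range at normal gravity was 1.06. Of these 23 genes, 18 overlap another row of the table, a share that was not set beside that of all 10500 genes. Tlr4 overlaps none, and the 3 other rows within 300 kb of it had no counts. The remaining 4 without an overlapping row were Hoxb8, C5ar1, Ifit2 and Usf3. The cause of the Tlr4 spread was not tested. Cd14, which hands lipopolysaccharide to Tlr4, differed by only 0.18 between the same 3 libraries. Ly96, the Tlr4 partner that completes the receptor, had 14.6 ± 1.46 CPM in simulated microgravity and 12.0 ± 0.90 CPM at normal gravity (SD, n = 3 each), a log2 difference of 0.28 (adjusted p = 0.400 in edgeR) over all libraries and 0.33 (adjusted p = 0.0773) without normal gravity replicate 1. Lbp, which carries lipopolysaccharide in serum, and Ly86, the partner of a related receptor, had no count in any library, which allows at most 0.0154 CPM over the 194666094 counts of all libraries, for counting error only.

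**Figure D4:**
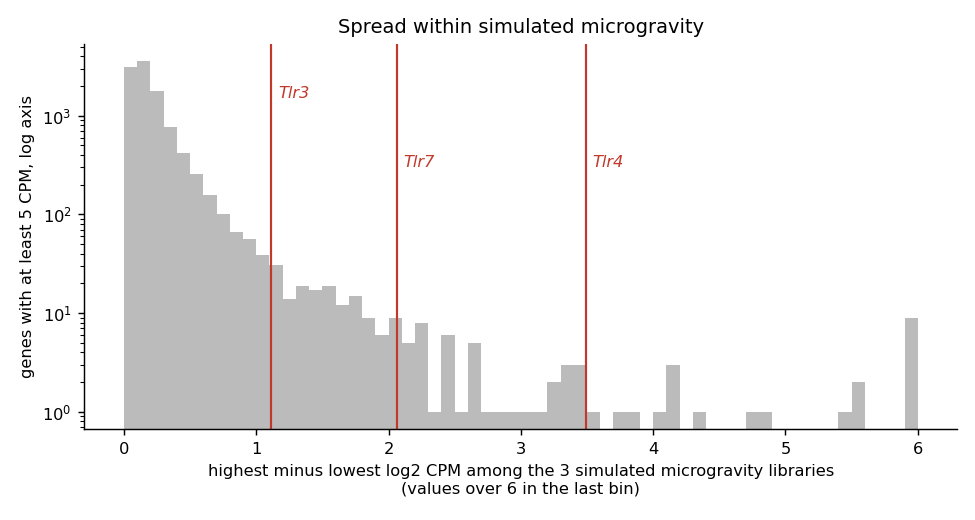
Histogram of the difference between the highest and lowest log2 CPM among the 3 simulated microgravity libraries, for 10500 genes with at least 5 CPM, on a log count axis. Red lines mark Tlr3 (1.11), Tlr7 (2.07) and Tlr4 (3.49). Values over 6 are in the last bin.

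Cd14, the co-receptor, encoded on chromosome 18, had 793, 839 and 899 CPM in simulated microgravity, against 1468, 793 and 753 CPM at normal gravity. Apart from replicate 1, the highest of all, the normal gravity libraries lay below the lowest value, if barely for replicate 2, in simulated microgravity. By level per gene length that order was lost. Normal gravity replicates 2 and 3 (1076 and 1021) were above replicate 1 in simulated microgravity (1001). The log2 difference for Cd14 was -0.25 (SE 0.27, adjusted p = 0.721 in edgeR) over all libraries and 0.13 (SE 0.06, adjusted p = 0.151) without normal gravity replicate 1, so its sign turned on that library.

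Of the endosomal receptors, Tlr9, which binds unmethylated DNA, had 6.48, 7.21 and 7.95 CPM in simulated microgravity, against 4.96, 14.3 and 16.7 CPM at normal gravity. Normal gravity replicate 1 was the lowest of all 6 libraries, and the other two at normal gravity were the highest. Tlr9 gave a log2 difference of -0.73 (SE 0.43, adjusted p = 0.482 in edgeR) over all libraries and -1.10 (SE 0.13, adjusted p = 0.00229) without that library. Tlr3, which binds double-stranded RNA, had 14.7, 6.78 and 8.47 CPM in simulated microgravity, against 8.16, 15.1 and 11.9 CPM at normal gravity. The groups overlapped, with replicate 1 high in simulated microgravity and low at normal gravity. For Tlr3 this gave -0.23 on the log2 scale (SE 0.36, adjusted p = 0.820 in edgeR), and -0.43 (SE 0.33, adjusted p = 0.374) without normal gravity replicate 1. The Tlr3 range within simulated microgravity, 1.11 log2 units, was reached by 205 of the 10500 genes (1.95%). For the other 8 of the 10 genes, Tlr4 and Tlr3 aside, that range was 0.40 or less.

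Unc93b1, which carries the endosomal receptors to their compartment, had 152, 148 and 149 CPM in simulated microgravity, against 245, 129 and 131 CPM at normal gravity. The simulated microgravity libraries lay between normal gravity replicate 1, far above them, and the other two normal gravity libraries below them. The log2 difference of Unc93b1 was -0.17 (SE 0.26, adjusted p = 0.823 in edgeR) over all libraries, and 0.21 (SE 0.04, adjusted p = 0.0129) without normal gravity replicate 1.

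Myd88, the adaptor of most receptors, had 74.3, 80.1 and 80.7 CPM in simulated microgravity, against 78.2, 71.9 and 66.2 CPM at normal gravity. The groups overlapped. Myd88 differed by 0.12 log2 units (SE 0.11, adjusted p = 0.687 in edgeR), and 0.18 (SE 0.07, adjusted p = 0.0863) without normal gravity replicate 1. Myd88 overlaps Acaa1a on the other strand, which had up to 3667 counts in a library, and the strand setting of the counting is not given in the sources used here, so reads of the pair may not be told apart. Ticam1, the adaptor also called TRIF, had 28.7, 28.2 and 29.5 CPM in simulated microgravity, against 18.7, 22.9 and 24.3 CPM at normal gravity. All 3 simulated microgravity libraries exceeded all 3 at normal gravity, of which replicate 1 was the lowest. Ticam1 thus differed by 0.39 log2 units (SE 0.13, adjusted p = 0.229 in edgeR) with all libraries and 0.29 (SE 0.07, adjusted p = 0.0270) without normal gravity replicate 1. Tirap, which bridges Tlr2 and Tlr4 to Myd88, had 31.2 ± 1.95 CPM in simulated microgravity and 26.3 ± 8.62 CPM at normal gravity (SD, n = 3 each), a log2 fold change of 0.25 (adjusted p = 0.714 in edgeR). Ticam2, which bridges Tlr4 to Ticam1, had 16.1 ± 1.45 CPM in simulated microgravity and 10.9 ± 2.22 CPM at normal gravity (SD, n = 3 each), a log2 fold change of 0.56 (adjusted p = 0.216 in edgeR). Without normal gravity replicate 1 Ticam2 was higher by 0.41 (adjusted p = 0.0376 in edgeR), and the log2 difference of Tirap was 0.00051 (adjusted p = 0.997). Ticam2 overlaps Tmed7 on the same strand, which had 3836 to 5287 counts a library, against 270 to 576 for Ticam2. How reads in the overlap were counted is not given in the sources used here, so the Ticam2 values may include or miss such reads.

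The other Toll-like receptor genes complete the family in these cells. Tlr13, which binds bacterial ribosomal RNA in mice, had 349, 335 and 341 CPM in simulated microgravity, against 129, 195 and 179 CPM at normal gravity. It rose, with groups that did not overlap and a log2 difference of 1.03 (SE 0.17, adjusted p = 0.0470 in edgeR) over all libraries and 0.87 (SE 0.05, adjusted p = 0.00026) without normal gravity replicate 1. The difference kept its size but missed the threshold in edgeR with DESeq2 size factors (1.02, adjusted p = 0.0525), with library size alone (0.98, adjusted p = 0.0619) and with no filter on low counts (1.03, adjusted p = 0.0794). Tlr7, a receptor for single-stranded RNA, had 192, 362 and 86.5 CPM in simulated microgravity, against 98.9, 113 and 116 CPM at normal gravity. Replicate 2 in simulated microgravity was again the highest library, as for Tlr4, while replicate 3 was the lowest of all 6, and the log2 fold change of 0.97 (adjusted p = 0.396 in edgeR), or 0.90 (adjusted p = 0.26) without normal gravity replicate 1, did not pass. Tlr8, the neighbour of Tlr7 on chromosome X, had 15.3, 12.0 and 11.8 CPM in simulated microgravity, against 3.58, 5.91 and 7.12 CPM at normal gravity. Its groups did not overlap, with a log2 fold change of 1.24 (adjusted p = 0.0949 in edgeR) over all libraries and 1.01 (adjusted p = 0.00726) without normal gravity replicate 1. Tlr5, the flagellin receptor, had 3.46 ± 0.48 CPM in simulated microgravity and 4.86 ± 3.24 CPM at normal gravity (SD, n = 3 each), with a log2 fold change of -0.49 (adjusted p = 0.766 in edgeR), and of -0.96 (adjusted p = 0.00741) without that library. Tlr11 and Tlr12 had no count in any library.

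Set on one scale, the receptor transcripts were dominated by Tlr2. As a share of the summed per-length level of all 12 Toll-like receptor genes, Tlr2 made up 60.2% ± 9.83 in simulated microgravity and 62.1% ± 8.65 at normal gravity (SD, n = 3 each). The share of Tlr13 was 19.1% ± 1.87 in simulated microgravity and 12.8% ± 2.59 at normal gravity, and that of Tlr7 was 12.1% ± 6.98 in simulated microgravity and 8.70% ± 0.70 at normal gravity. Tlr4 held 4.10% ± 5.08 in simulated microgravity and 10.6% ± 3.70 at normal gravity. The remaining receptors, Tlr1, Tlr3, Tlr5, Tlr6, Tlr8 and Tlr9, each stayed under 3% in every library. The summed level itself was 868 ± 81.8 in simulated microgravity and 637 ± 89.6 at normal gravity, on the per-length scale. Normal gravity replicate 1 stood apart here too. The sums at normal gravity were 533, 687 and 690 (replicates 1 to 3), and the Tlr2 shares were 72.1%, 57.3% and 56.9%.

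Genes around the receptors were read from 7 lists of the pathway, 94 genes of which 93 were in the table and 89 were tested. Over all libraries 5 rose and 1 fell, beside 1.16% and 0.365% of all tested genes, and the median log2 fold change of the lists was 0.14. Among the accessory proteins, 2 of 15 rose: Ctsk, a lysosomal protease linked to Tlr9 signalling, by 1.85 on the log2 scale (SE 0.23, adjusted p = 0.0201 in edgeR), and Cd36, a scavenger receptor that assists Tlr2 with Tlr6, by 0.91 (SE 0.13, adjusted p = 0.0308). Map3k8, the kinase TPL2 that activates ERK below the receptors, was the single one of 20 kinases and ubiquitin ligases to pass, at 0.74 (SE 0.12, adjusted p = 0.0454). Among 20 target genes Acod1, the itaconate-making enzyme of activated macrophages, rose by 0.83 (SE 0.13, adjusted p = 0.0438), with 343 ± 19.0 CPM in simulated microgravity and 193 ± 27.1 CPM at normal gravity (SD, n = 3 each). Cxcl10, a chemokine of the interferon response, fell by 1.62 on the log2 scale (SE 0.15, adjusted p = 0.0079 in edgeR), with 15.7, 15.9 and 12.7 CPM in simulated microgravity, against 49.5, 41.2 and 45.2 CPM at normal gravity. All 6 calls, Tlr13 included, held without normal gravity replicate 1, and all 6 were lost when any of the other 5 libraries was left out, with differences of about the same size. Across all genes each of those 5 omissions left only 3 to 24 calls (0.0202% to 0.161% of tested genes), beside 221 (1.52%) with all libraries. Over those 5 omissions Cxcl10 ran from -1.68 to -1.51 (adjusted p 0.0507 to 0.0849 in edgeR), Ctsk from 1.70 to 1.91 (0.0901 to 0.156) and Tlr13 from 1.01 to 1.15 (0.11 to 0.255). Cd36 ran from 0.84 to 0.98, Acod1 from 0.77 to 0.86 and Map3k8 from 0.68 to 0.78. With no filter on low counts the calls of Cd36 (adjusted p = 0.0501), Acod1 (0.0664) and Map3k8 (0.0772) were lost as well, and that of Map3k8 also with library size alone (0.0547). Tnf, the cytokine most often read out for these receptors, was named after its values were seen and had 2182 ± 33.4 CPM in simulated microgravity and 2157 ± 25.0 CPM at normal gravity (SD, n = 3 each), a log2 fold change of 0.016 (adjusted p = 0.958 in edgeR), also 0.016 (adjusted p = 0.73) without normal gravity replicate 1.

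Without normal gravity replicate 1, 30 of the 89 pathway genes were higher and 18 lower in simulated microgravity, beside 15.7% and 15.1% of all tested genes, and their median log2 fold change was 0.12. Negative regulators gave 10 higher and 1 lower of 16, where the fit with all libraries called none. In that fit 3 of the 16 had an unadjusted p under 0.05, beside 2325 of all 14509 tested genes. DESeq2 called 3, beside 5.86% of all genes. Dusp1, a phosphatase of MAP kinases, led them with 166, 178 and 189 CPM in simulated microgravity, against 133, 26.1 and 24.0 CPM at normal gravity. Dusp1 differed by 2.83 log2 units (SE 0.08, adjusted p = 3.7e-05 in edgeR) without that library and 1.55 (SE 0.68, adjusted p = 0.337) with it. Irak3, a kinase-like inhibitor of Myd88 signalling, was higher by 0.44 (adjusted p = 0.00119 in edgeR) without that library and had 0.56 (adjusted p = 0.114) with it. Trafd1, an inhibitor of Traf6 signalling, was higher by 0.75 (adjusted p = 0.00152 in edgeR) without that library and had 0.32 (adjusted p = 0.68) with it.

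**Figure D5:**
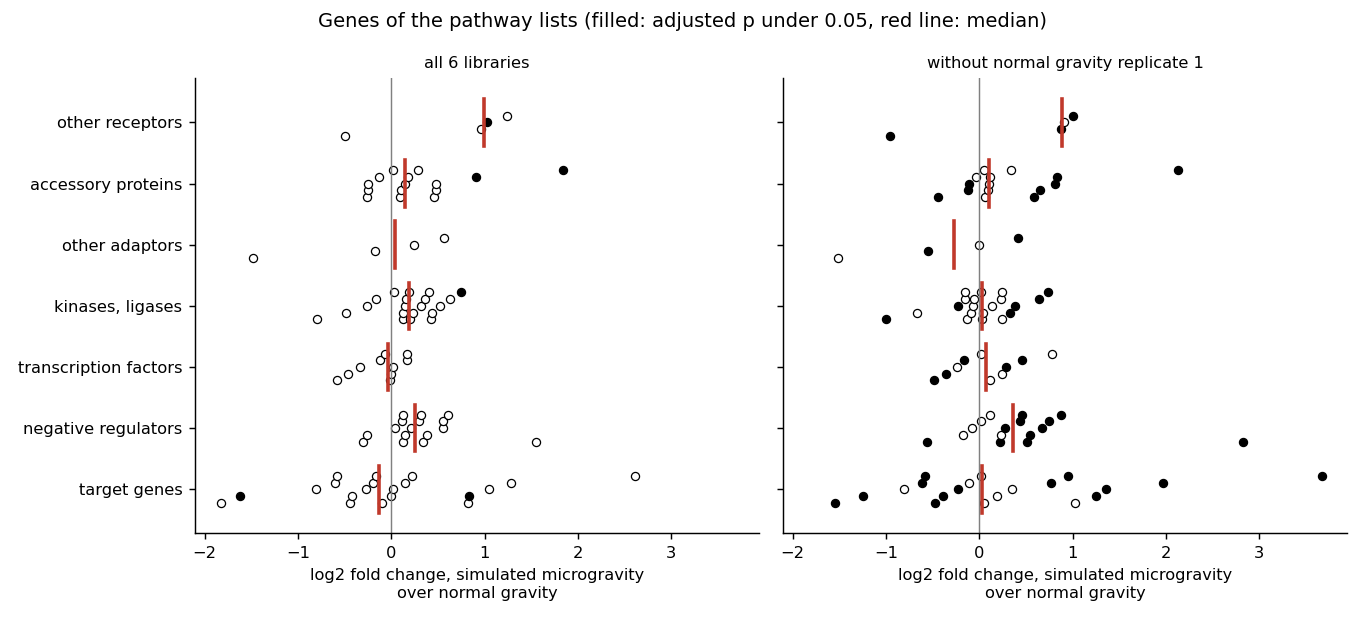
Log2 fold change, simulated microgravity over normal gravity, of each tested gene in the 7 pathway lists, with all 6 libraries (left) and without normal gravity replicate 1 (right). Filled points have an adjusted p under 0.05 in edgeR, and red lines are list medians. On the left 6 points are filled and on the right 48, of which 13 are target genes (6 higher, 7 lower).

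The other lists had calls in both directions once normal gravity replicate 1 was left out, and their counts stand beside 15.7% higher and 15.1% lower of all tested genes (30.8% in all) in that comparison. Each gene has its log2 fold change in edgeR without that library first, and then that of all 6 libraries. Target genes gave 6 higher and 7 lower of 20. Marco, a scavenger receptor that is also a Kupffer cell marker here, was higher by 3.67 (adjusted p = 2.98e-05), against 2.61 (adjusted p = 0.105) with all libraries. Cxcl2, a neutrophil chemokine, was higher by 1.25 (adjusted p = 0.000129), against 0.82 (adjusted p = 0.247) with all libraries. Accessory proteins gave 5 higher and 3 lower of 15. Beside Ctsk, the protease Ctsb was higher by 0.59 (adjusted p = 0.000403), against 0.46 (adjusted p = 0.161) with all libraries, and Ctsl by 0.65 (adjusted p = 0.000768), against 0.48 (adjusted p = 0.196).

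Kinases and ubiquitin ligases gave 4 higher and 2 lower of 20, a share near that of all genes. Irak4, the first kinase bound by Myd88, was higher by 0.64 (adjusted p = 0.00785 in edgeR), against 0.63 (adjusted p = 0.0809) with all libraries. Ripk1, a kinase reached through Ticam1, was higher by 0.39 (adjusted p = 0.00433), against 0.53 (adjusted p = 0.177) with all libraries. Transcription factors gave 2 higher and 3 lower of 10. Irf3, the interferon regulator below Ticam1, was higher by 0.46 (adjusted p = 0.00581), against 0.17 (adjusted p = 0.768) with all libraries, and the NF-kB subunit gene Rela by 0.29 (adjusted p = 0.0224), against 0.17 (adjusted p = 0.612). Nfkb2, of the non-canonical NF-kB branch, was lower (-0.49, adjusted p = 0.00121), against -0.46 (adjusted p = 0.0809) with all libraries. Of the other adaptors 1 of 4 was higher, Ticam2, and 1 lower, Pik3ap1, which links the receptors to phosphoinositide signalling (-0.55, adjusted p = 0.00209), against -0.17 (adjusted p = 0.9) with all libraries.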

How the data were processed

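RNA was measured in 6 libraries, 3 of simulated microgravity and 3 of normal gravity. The authors deposited one table of raw read counts per gene, whole numbers with no sign of normalization. Reads had gone through fastp 2.0 and HISAT2 2.1.0 per the submitters' processing notes. Counting tool, strand setting, build and annotation are not given in the sources used here. Start and end equalled GENCODE M21 (GRCm38) for 52055 of 53619 shared genes (97.1%) and for 9 of the 10 genes described.

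The test was that of edgeR 4.0.16 in R 4.3.3 (filterByExpr, TMM, quasi-likelihood test, two-sided, Benjamini-Hochberg over all tested genes, threshold 0.05). Each SE was taken as the log2 fold change over the square root of F. DESeq2 1.42.0 and limma 3.58.1 were alternatives, as were other scalings, filters, a gene length trend removed, a replicate block and each library left out. The procedure was also run on simulated counts. These held no outlying library, so they cannot show how it behaves with normal gravity replicate 1. Library totals leave a floor of 0.0874 to 0.0984 CPM per library (3 counts). The genes and lists were chosen with earlier results of these data known, and so was the comparison without normal gravity replicate 1. Named were all 10 genes, the other receptors, Ly96, Tirap and Ticam2, and from each list up to 3 genes past the threshold with the lowest p in either comparison. The listed gene Tasl was not found under that symbol. All libraries were used.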

Additional observations from a re-analysis of the deposited data

How the results depend on the processing

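The calls of the 10 genes turned on 1 library. Members of the set called higher in simulated microgravity numbered 0 with all libraries, 3 with limma-voom and sample quality weights (normal gravity replicate 1 had a weight of 0.0506, the others 1.38 to 2.25), and 0 to 4 when each library was left out. Those called lower numbered 0, 2 with the weights and 0 to 2 with each library left out, in each case above 0 solely without normal gravity replicate 1. The log2 fold change of Cd14 turned to 0.094 with the weights and ran from -0.42 to 0.13 with each library left out, and that of Unc93b1 turned to 0.20 and ran from -0.33 to 0.21, both above 0 without normal gravity replicate 1. Pik3ap1 turned to 0.022 with limma-voom and ran from -0.55 to 0.069 with each library left out, and Tirap turned to -0.011 with the weights. Over all genes, the 221 calls became 125 with no filter, 961 in DESeq2, 4798 with the weights and 696 with the gene length trend removed. They became 4559 without normal gravity replicate 1 and 3 to 24 when any of the other 5 libraries was left out. The 5 pathway genes that rose became 3 by library size alone, 1 with no filter, 11 in DESeq2, 31 with the weights, 8 with the length trend removed and 0 to 30 with each library left out. The 1 that fell became 4 in DESeq2, 15 with the weights, 3 with the length trend removed and 0 to 18 with each library left out. Called counts fell to 0 when any of the other 5 libraries was omitted for the pathway genes. By CPM without gene length, 4 of the 10 genes kept their rank. The cause of these differences was not tested.

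Replicate numbers gave no sign of pairing. The deviations of same-numbered libraries correlated at -0.073, 0.025 and -0.090, and those of differently numbered libraries at -0.059 to 0.093. With 3 libraries a group and normal gravity replicate 1 apart from the rest, these values cannot exclude a pairing. A replicate block called 0 genes, 0 of the 10, and 0 pathway genes in either direction, and turned Pik3ap1 to 0.0039.

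At these totals Tlr1, with 94 to 372 counts a library, is the least deeply counted of the 10 genes.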
